A study of Ovis aries with 9 samples.

Results

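The expression of 7 genes of the inhibin, activin, follistatin and anti-Müllerian hormone system was examined in sheep ovaries. They were the inhibin subunit genes INHA, INHBA and INHBB, the binding protein genes FST and FSTL3, the gene of anti-Müllerian hormone (AMH) and the gene of its receptor (AMHR2). The genes were taken by symbol from a table of 27174 rows of read counts. All 7 had a row, and all 7 were among the 16871 genes with enough reads to be tested.

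Inhibins and activins are dimers built from a shared set of subunits in the granulosa cells of the follicle. An alpha subunit (INHA) joined to a beta subunit (INHBA or INHBB) makes inhibin, which lowers the secretion of follicle-stimulating hormone (FSH) from the pituitary, whereas a pair of beta subunits makes activin, which raises it. Follistatin and its relative FSTL3 bind activin and keep it from its receptors, and AMH from the granulosa cells of small growing follicles acts through AMHR2 to restrain follicle recruitment.

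Whole ovaries carrying ovulation points were taken from 9 ewes, with 1 library per ewe. The groups were 3 Dorset ewes (D4, D5 and D6), whose genotype is labelled wild type and which the study used as low-fecundity controls, 3 Small Tail Han ewes of genotype FecBBFecBB (ewes W1, W2 and W4, or Han BB) and 3 of the same breed with genotype FecB+FecB+ (ewes W6, W7 and W8, or Han ++). FecB is a mutation in BMPR1B, a receptor for bone morphogenetic proteins. Every ewe, the Dorset controls included, had been given sponges with fluorogesterone acetate and an injection of pregnant mare serum gonadotropin, was 2.5 to 3 years old, and was killed 24 to 36 h after the spontaneous estrus that followed. The comparison of Han BB with Han ++ is between FecB genotypes within a breed, whereas in the comparisons with Dorset the breed and the genotype cannot be told apart for Han BB.

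Between 10803913 and 20992535 reads per library were counted on genes. Every pair of libraries differed by more than counting noise, with a chi-square per degree of freedom of at least 45.8. The libraries W4 (Han BB) and D6 (Dorset) were more alike (rank correlation 0.978) than either was to any library of its own group (at most 0.931 for W4 and 0.949 for D6), and the Dorset ewes D4 and D5 and the Han BB ewe W1 also had their closest library in another group. W4 and D6 were set apart with earlier results of these data known, and the differences of the 7 genes, their correlations and the spans of their ratios are given with and without them. The first principal component held 41.3% of the variance and ran from D4 and W8 at 1 end to D6 and W4 at the other. The single transcript LOC101101865 took between 0.0107% of the reads (in D6) and 14.9% (in D4). The defining markers of the follicle were read in all 9 libraries, with FSHR, the FSH receptor of granulosa cells, at 5.42 to 14.4 CPM (reads per 1000000 of the library total, after edgeR's TMM scaling of the totals) and CYP17A1, a theca cell enzyme of androgen synthesis, at 2.81 to 119.5 CPM. BMPR1B itself had at most 8 reads in a library and was not tested.

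INHA, the alpha subunit that inhibins contain and activins lack, was measured with 203 to 1526 reads per library. Its level was 57.1, 65.4 and 37.0 CPM in the Dorset ewes D4, D5 and D6. It was 44.8, 68.2 and 13.6 CPM in the Han BB ewes W1, W2 and W4, and 61.3, 69.0 and 95.2 CPM in the Han ++ ewes W6, W7 and W8. The lowest values of the series were those of W4 and D6, the pair of libraries that stood apart, and the 3 groups overlapped. The means were 53.2 ± 14.6 (Dorset), 42.2 ± 27.4 (Han BB) and 75.2 ± 17.8 CPM (Han ++) (SD, n = 3 each). With edgeR's quasi-likelihood F-test, in which a gene is called at a Benjamini-Hochberg adjusted p under 0.05 over all 16871 genes and a fold past 1.5 in either direction, INHA was not called in any comparison. The log2 fold change was -0.83 (SE 0.48) for Han BB against Han ++, with a 95% interval from -1.90 to 0.23 and an unadjusted p of 0.113 in edgeR. Without W4 and D6 it was -0.42. In whole ovary RNA, fewer granulosa cells and less INHA RNA per cell cannot be told apart, and the same holds for every gene below.

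INHBA encodes the beta A subunit of inhibin A and activin A. Its level was 55.8, 166.6 and 166.3 CPM in D4, D5 and D6. In the Han BB ewes W1, W2 and W4 it was 15.5, 73.3 and 91.3 CPM, and in the Han ++ ewes W6, W7 and W8 it was 28.1, 109.2 and 140.7 CPM. Each group held 1 ewe far below the other two, namely D4, W1 and W6, so that the range within each group was wider than any distance between the group means. The highest value of the series was 10.7 times the lowest. The SD of log2 CPM within groups was 1.2, above that of 85.4% of all tested genes, for which the median SD was 0.544. The means were 129.6 ± 63.9 (Dorset), 60.0 ± 39.6 (Han BB) and 92.7 ± 58.1 CPM (Han ++) (SD, n = 3 each). The log2 fold change of Han BB against Dorset was -1.11 (SE 0.70), with a 95% interval from -2.65 to 0.43 and an unadjusted p of 0.140 in edgeR. Leaving out 1 ewe at a time gave values from -1.58 (without W4) to -0.68 (without W1), and -1.36 was found without W4 and D6. limma voom with quality weights gave -2.16 for the same comparison, at an adjusted p of 0.382.

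INHBB encodes the beta B subunit of inhibin B and activin B. It was read at 5.74, 29.8 and 16.7 CPM in D4, D5 and D6, at 3.94, 10.5 and 8.03 CPM in W1, W2 and W4, and at 4.25, 17.9 and 15.5 CPM in W6, W7 and W8. The ewes that were lowest for INHBA, namely D4, W1 and W6, were also the lowest of their groups for INHBB, and the 3 groups overlapped. The means were 17.4 ± 12.02 (Dorset), 7.49 ± 3.32 (Han BB) and 12.5 ± 7.27 CPM (Han ++) (SD, n = 3 each). The log2 fold change of Han BB against Dorset was -1.22 (SE 0.65), with a 95% interval from -2.65 to 0.20 and an unadjusted p of 0.0844 in edgeR. The Dorset ewe D5 carried much of the size of this value, since it was -0.60 without her.

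**Figure D1:**
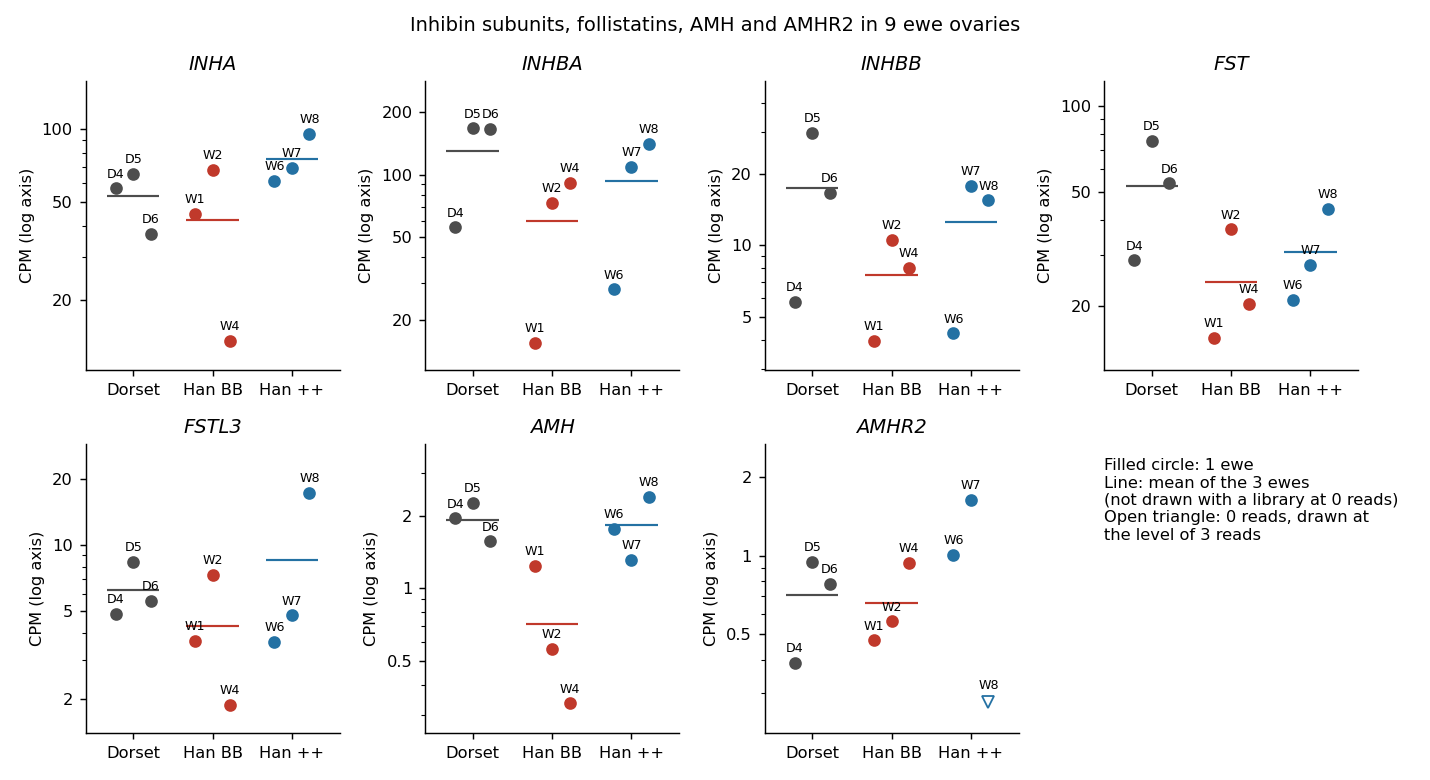
Expression of the 7 genes in each ewe, in CPM on a log axis that differs between panels. Each filled circle is 1 ewe, coloured by group, the line is the mean of the 3 ewes, and the open triangle marks W8, which had 0 reads of AMHR2 and is drawn at the level of 3 reads. INHBA and INHBB show the same low ewes in each group (D4, W1 and W6), INHA is lowest in W4, and the 3 Han BB ewes lie below the other 6 for AMH.

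FST encodes follistatin, the main soluble binding protein of activin. It was read at 28.8, 75.4 and 53.6 CPM in the Dorset ewes D4, D5 and D6. The Han BB ewes W1, W2 and W4 had 15.4, 37.0 and 20.3 CPM, and the Han ++ ewes W6, W7 and W8 had 20.9, 27.8 and 43.6 CPM. D5 and D6 were above every Han ewe, whereas D4 lay among them, so the groups overlapped in every comparison. The means were 52.6 ± 23.3 (Dorset), 24.3 ± 11.3 (Han BB) and 30.8 ± 11.6 CPM (Han ++) (SD, n = 3 each). FST had the smallest unadjusted p of the 7 genes. Its log2 fold change in Han BB against Dorset was -1.12 (SE 0.44), with a 95% interval from -2.09 to -0.15 and an unadjusted p of 0.0279 in edgeR, and its adjusted p was 0.975. An unadjusted p under 0.05 was found for 1 of the 7 genes in this comparison and for 4.99% of all tested genes. The log2 fold change was -1.02 without W4 and D6, and leaving out 1 ewe at a time gave values from -1.55 (without W2) to -0.77 (without D5). DESeq2 gave an adjusted p of 0.615 and limma voom of 0.322, so FST did not pass the threshold in any of the 3 tools.

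FSTL3 encodes a follistatin-like glycoprotein that binds activin and related ligands. It was read at 4.87, 8.38 and 5.59 CPM in D4, D5 and D6, at 3.66, 7.36 and 1.87 CPM in W1, W2 and W4, and at 3.63, 4.80 and 17.3 CPM in W6, W7 and W8. The Han ++ ewe W8 was the highest of the series by a wide margin and the Han BB ewe W4 the lowest, and the 3 groups overlapped. The mean of 8.58 ± 7.59 CPM in Han ++ (SD, n = 3) therefore rested on W8, and the means were 6.28 ± 1.86 (Dorset) and 4.29 ± 2.80 CPM (Han BB) (SD, n = 3 each). The log2 fold change of Han BB against Han ++ was -0.99 (SE 0.64, unadjusted p of 0.153 in edgeR) with W8 and 0.01 without her. The value for Han ++ against Dorset was 0.43 (SE 0.64) with W8 and -0.56 without her.

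AMH, the hormone that small growing follicles release, was measured with few reads. The counts were 20, 50 and 28 reads in D4, D5 and D6, 26, 8 and 5 reads in the Han BB ewes W1, W2 and W4, and 37, 29 and 26 reads in the Han ++ ewes W6, W7 and W8. At the depths of these libraries the levels were 1.95, 2.25 and 1.56 CPM in Dorset, 1.23, 0.560 and 0.335 CPM in Han BB and 1.77, 1.31 and 2.40 CPM in Han ++. Every Han BB ewe was below every ewe of both other groups, although W1 at 1.23 CPM came close to the lowest Han ++ ewe, W7, at 1.31 CPM. The exact Poisson 95% intervals of these neighbours, 0.806 to 1.81 CPM for W1 and 0.879 to 1.88 CPM for W7, overlapped over most of their length, and such intervals cover counting error only. This order, seen after the values were known, was found for 0.925% of all tested genes. The means were 1.92 ± 0.346 (Dorset), 0.710 ± 0.468 (Han BB) and 1.82 ± 0.544 CPM (Han ++) (SD, n = 3 each).

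In edgeR the log2 fold change of AMH was -1.41 (SE 0.69) for Han BB against Dorset, with a 95% interval from -2.93 to 0.10, an unadjusted p of 0.0644 and an adjusted p of 0.977. For Han BB against Han ++ it was -1.33 (SE 0.69), with a 95% interval from -2.84 to 0.18 and an unadjusted p of 0.0787 in edgeR. Han ++ and Dorset differed by -0.08 (SE 0.67) on the log2 scale, with an interval from -1.55 to 1.39 that leaves room for differences of more than 2-fold in either direction. DESeq2 gave Han BB against Dorset an unadjusted p of 0.0430, as it did under 0.05 for 2 of the 7 genes (AMH and FST) and 5.4% of the 24699 genes to which it gave a p, and an adjusted p of 0.795. Without W4 and D6 the values were -1.22 against Dorset and -1.002 against Han ++, and leaving out 1 ewe at a time kept both below 0 (-2.09 to -1.10 and -2.004 to -1.0035). AMH was thus lower in Han BB in sign under every setting tried, without passing the adjusted threshold under any. Since every Han BB ewe was below every other ewe, leaving out ewes could hardly turn the sign. The other settings refit the same libraries, so the constant sign is no separate evidence.

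AMHR2 encodes the type II receptor that AMH binds. Its counts were 4, 21 and 14 reads in D4, D5 and D6, 10, 8 and 14 reads in W1, W2 and W4, and 21, 36 and 0 reads in W6, W7 and W8. Han ++ thus held both the highest value of the series, 1.63 CPM in W7, and a library in which no read was counted. W8 had the lowest total count, and a count of 0 there allows a level of up to 0.276 CPM (3 reads), or 0.340 CPM by the upper end of the exact Poisson 95% interval. The lowest of the others was D4, at 0.389 CPM. The within-group SD of log2 CPM was 1.90, above that of 93.8% of tested genes. This SD rests on W8, whose log2 CPM of -5.10 is set by the prior count, a small count added before the log. In the other ewes log2 CPM lay between -1.26 (D4) and 0.73 (W7). The log2 fold changes were -0.12 (SE 1.12) for Han BB against Dorset, 0.32 (SE 1.11) for Han ++ against Dorset and -0.45 (SE 1.12) for Han BB against Han ++, and the first had a 95% interval from -2.60 to 2.35. This interval leaves room for differences of several-fold in either direction.

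Set side by side, all 7 genes had a negative log2 fold change in Han BB against Dorset and in Han BB against Han ++, and 4 of 7 did in Han ++ against Dorset. The medians over the 7 genes were -1.11, -0.74 and -0.08, beside medians over all tested genes of -0.01, 0.04 and -0.06. Among all tested genes, 50.6%, 46.6% and 55.9% were lower in these comparisons. The 2 comparisons that hold Han BB share the same 3 Han BB ewes, and the 7 genes were not independent of each other, since several varied together from ewe to ewe. Without W4 and D6 all 7 values stayed below 0 in both comparisons of Han BB. Against Dorset they were then -0.13 for INHA, -1.36 for INHBA, -1.35 for INHBB, -1.02 for FST, -0.30 for FSTL3, -1.22 for AMH and -0.41 for AMHR2, and against Han ++ they lay between -1.07 (INHBA) and -0.24 (FST). For Han ++ against Dorset they lay between -0.79 (FST) and 0.39 (AMHR2). Leaving out W4 alone put INHA at 0.07 against Dorset, and AMHR2 changed sign in every comparison when single ewes were left out.

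None of the 7 genes was called in any of the 3 comparisons by edgeR, DESeq2 or limma voom. Over all tested genes, edgeR called 0 genes (0%) in Han BB against Dorset, 1 gene (0.00593%) in Han ++ against Dorset and 0 genes (0%) in Han BB against Han ++. DESeq2 called 38 (0.243% of the 15632 genes with an adjusted p), 65 (0.404% of 16108) and 2 genes (0.0081% of 24699) in these comparisons, and limma voom called 0 (0%), 0 (0%) and 2 genes (0.0119%). At an unadjusted p under 0.05, edgeR found FST alone among the 7 genes in Han BB against Dorset, and 0 of the 7 in Han ++ against Dorset (5.27% of all tested genes) and in Han BB against Han ++ (1.97%). limma voom had unadjusted p values under 0.05 for INHBA, INHBB and FST in Han BB against Dorset (11.5% of all tested genes) and for FST in Han ++ against Dorset (9.78%), and for 0 of the 7 in Han BB against Han ++ (7.26%). DESeq2 had 0 of the 7 genes under an unadjusted p of 0.05 in Han ++ against Dorset (4.63% of 24699 genes) and in Han BB against Han ++ (2.21%). The groups did not overlap for 1 of the 7 genes, AMH, which was lower in Han BB than in Dorset (4.52% of all tested genes were lower without overlap) and than in Han ++ (4.59%). None was higher in Han BB without overlap (4.27% of all tested genes against Dorset and 4.78% against Han ++), and in Han ++ against Dorset none was lower or higher without overlap (5.59% and 5.47%). A test for any difference among the 3 groups called 0 of the 7 genes and 0 of all genes (0%) in edgeR, and 3.94% of all genes had an unadjusted p under 0.05. The smallest p of the 7 genes in that test was 0.0641, for FST.

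**Figure D2:**
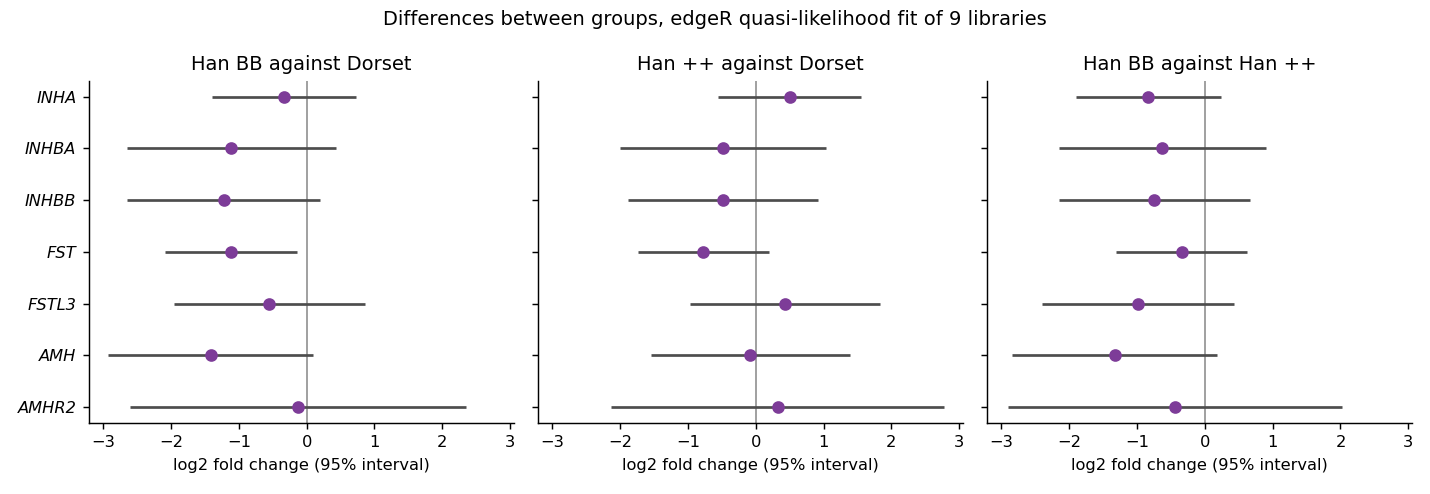
Log2 fold changes of the 7 genes in the 3 comparisons, from the edgeR fit of all 9 libraries. Points are fitted values and lines are 95% intervals. All points lie below 0 in both comparisons of Han BB, and only the interval of FST in Han BB against Dorset (-2.09 to -0.15) leaves out 0.

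The beta subunit genes and follistatin varied together from ewe to ewe. Pearson's r of log2 CPM over the 9 ewes was 0.91 for INHBA and INHBB (Spearman's rho 0.93), with an exact permutation p of 0.0002 for r and of 0.0007 for rho, two-sided, and adjusted values of 0.0043 and 0.0157 over the 21 pairs of the 7 genes. Leaving out W1 and W6, which were farthest from the median of INHBA, gave r = 0.88, and leaving out W4 and D6 gave r = 0.94. With each group's mean removed r was 0.89. Among the 16870 other tested genes, INHBB ranked 7 in its correlation with INHBA, and INHBA ranked 8 in its correlation with INHBB.

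FST followed both beta subunits. It had r = 0.86 with INHBB (rho 0.77) and r = 0.82 with INHBA (rho 0.82), with exact permutation p of 0.0033 and 0.0059 for r and 0.0214 and 0.0108 for rho. The adjusted values over 21 pairs were 0.0351 and 0.0410 for r and 0.112 and 0.0754 for rho, so these pairs passed the threshold by r and not by rho. Without the 2 ewes farthest from the median, r was 0.69 for INHBB with FST and 0.70 for INHBA with FST. Without W4 and D6 it was 0.87 and 0.89 over 7 ewes, at adjusted exact permutation p of 0.0583 for both, and only INHBA with INHBB passed in that set (adjusted p of 0.0417, exact permutation). The libraries of these pairs share their normalization, and 9 ewes give wide limits on any r.

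INHA did not follow the beta subunits. Its r was 0.05 with INHBA (rho 0.23) and 0.24 with INHBB (rho 0.42), with exact permutation p of 0.906 and 0.576 for r and 0.552 and 0.270 for rho (adjusted 0.945 and 0.758, and 0.644 and 0.472). This rested on the pair of libraries that stood apart, in which INHA was at its lowest while INHBA was at or above its median. Without W4 and D6, which were also the farthest from the median of INHA, r was 0.79 with INHBA and 0.64 with INHBB, and the adjusted exact permutation p were 0.121 and 0.240. INHA also ran with the first principal component of all genes (r = -0.72, rho -0.55, exact permutation p of 0.0199 and 0.133, adjusted p of 0.140 for r over the 7 genes, and r = -0.85 without D4 and W4), and what part this had in the relation was not tested. Of the remaining pairs, INHA and FSTL3 had r = 0.80 (rho 0.62, exact permutation p of 0.0132 and 0.0857, adjusted 0.0695 and 0.226), which was 0.85 without W4 and D6. FST and FSTL3 had rho 0.87 (r = 0.70, exact permutation p of 0.0045 and 0.0360, adjusted 0.0473 and 0.147). AMH and AMHR2, ligand and receptor, had r = -0.34 (rho -0.23, exact permutation p of 0.332 and 0.552, adjusted 0.514 and 0.644), and both genes had low counts. Without W2 and W4 it was -0.56. Both of these r values include W8, the ewe with the highest AMH and 0 reads of AMHR2. The log2 CPM of AMHR2 there, -5.10, is set by the prior count, and r without W8 was not computed.

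**Figure D3:**
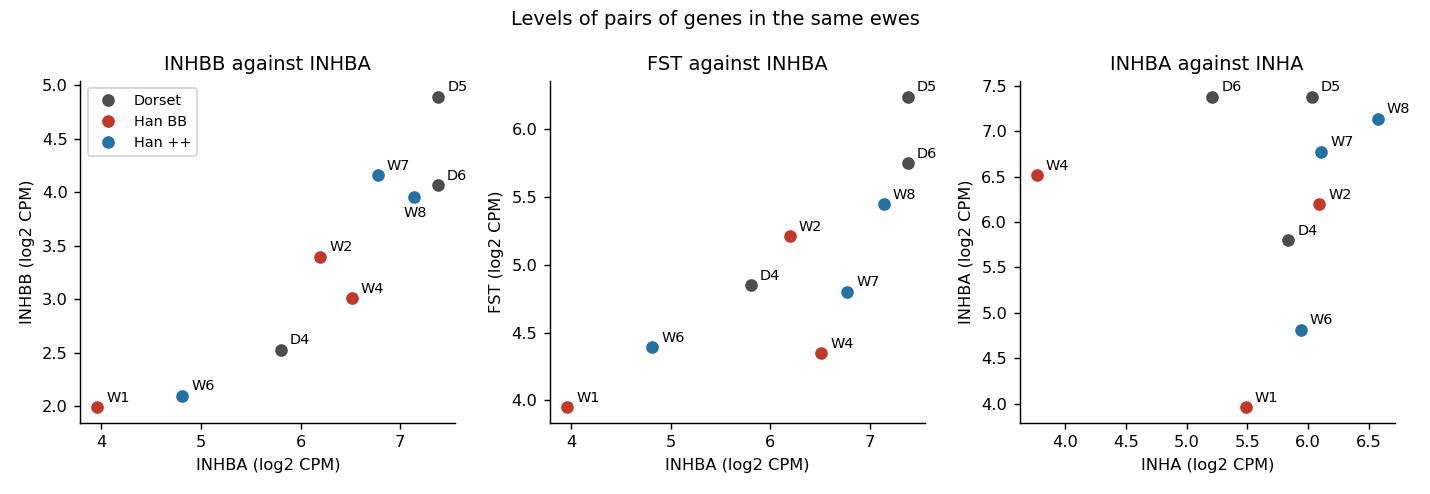
Levels of 3 pairs of genes in the same ewes, in log2 CPM, with 1 point per ewe coloured by group. INHBB was higher in ewes with more INHBA (r = 0.91), FST followed INHBA more loosely (r = 0.82), and W4 and D6 lie apart from the other 7 ewes in the plot of INHBA against INHA (r = 0.05 with them and 0.79 without them).

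Ratios of reads within a library, which do not depend on the depth or the scaling, give the contrast between the alpha and the beta subunits in another form. They come from the same counts as the correlations and are no separate evidence. They are not ratios of molecules, because reads were not divided by gene length, and they carry no test. The ratio of INHA to INHBA was 1.02, 0.393 and 0.223 in D4, D5 and D6, 2.89, 0.931 and 0.149 in W1, W2 and W4, and 2.18, 0.632 and 0.676 in W6, W7 and W8. It spanned 19.4-fold between 2 ewes of the same group, W4 and W1, and 7.35-fold without W4 and D6. The group means of the log2 ratio were -1.16 ± 1.11 in Dorset, -0.44 ± 2.16 in Han BB and -0.03 ± 1.01 in Han ++ (SD, n = 3 each). The SD within Han BB was larger than every difference between these means.

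The ratio of INHBA to INHBB was the steadiest of those computed and lay between 3.94 (in W1) and 11.4 (in W4), a 2.89-fold span (2.47-fold without W4 and D6). Its mean log2 value was 3.03 ± 0.47 in Dorset, 2.76 ± 0.77 in Han BB and 2.84 ± 0.30 in Han ++ (SD, n = 3 each). The ratio of INHA to INHBB ran from 1.69 in W4 to 14.4 in W6, an 8.53-fold span (6.57-fold without W4 and D6). The beta A and beta B transcripts thus kept a closer proportion across ewes than either did with the alpha transcript.

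The binding proteins were set against the subunits in the same way. The ratio of FST to INHBA ran from 0.223 in W4 to 0.994 in W1, a 4.46-fold span (3.90-fold without W4 and D6), and its mean log2 value was -1.24 ± 0.35 in Dorset, -1.05 ± 1.08 in Han BB and -1.36 ± 0.83 in Han ++ (SD, n = 3 each). These means differed by less than the SD within either Han group. The ratio of FST to INHA was 0.342, 0.403 and 0.458 in the Han ++ ewes W6, W7 and W8. It was 0.504, 1.15 and 1.45 in D4, D5 and D6 and 0.344, 0.542 and 1.498 in W1, W2 and W4. It spanned 4.38-fold, and 3.37-fold without W4 and D6. The ratio of FSTL3 to FST ran from 0.0921 in W4 to 0.398 in W8, a 4.315-fold span (3.575-fold without W4 and D6), with mean log2 values of -2.998 ± 0.378 in Dorset, -2.62 ± 0.73 in Han BB and -2.13 ± 0.69 in Han ++ (SD, n = 3 each).

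**Figure D4:**
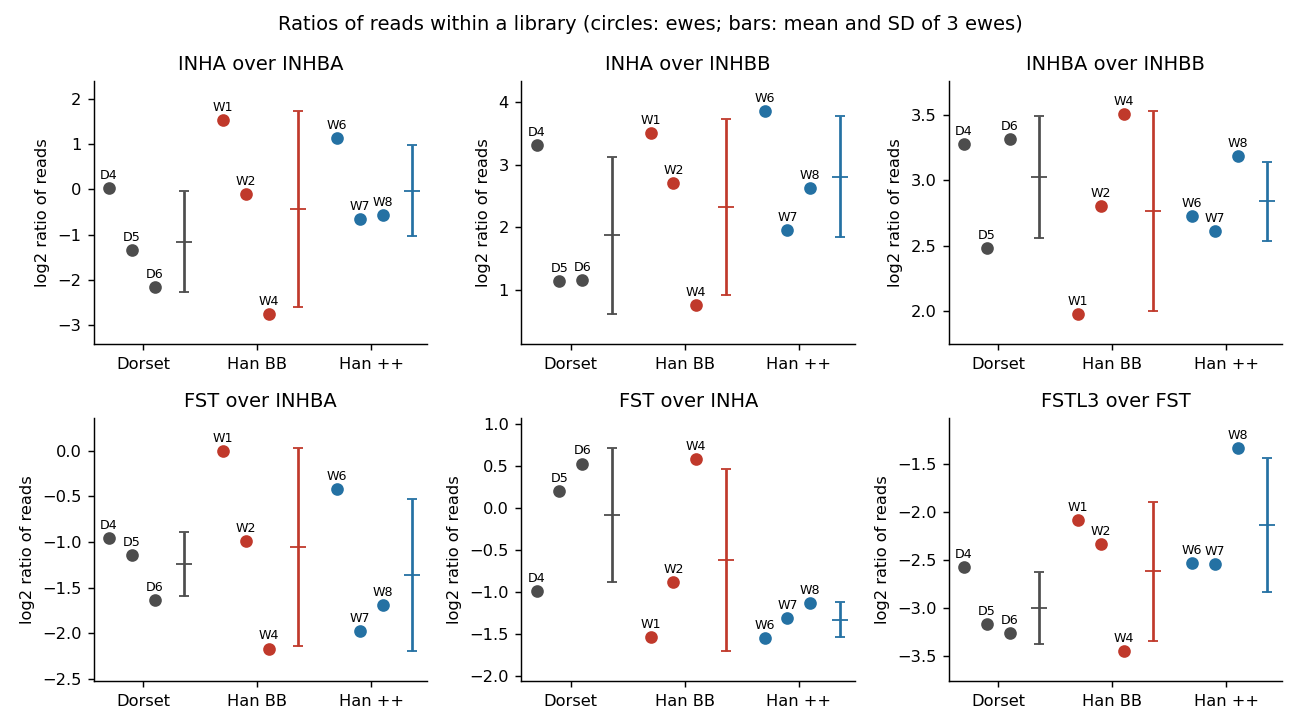
Log2 ratios of reads between pairs of the genes within each library. Circles are ewes, and bars give the mean and SD of the 3 ewes of a group. The axes differ between panels. The ratio of INHA to INHBA spans 19.4-fold and that of INHBA to INHBB 2.89-fold over the 9 ewes, and 7.35-fold and 2.47-fold without W4 and D6.

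For each of the 7 genes, the tested genes with the highest r over the 9 libraries were listed, as a description with no test. For INHBA these were NR5A2 (r = 0.96), a nuclear receptor of granulosa and luteal cells, PAQR6, LRP8 (r = 0.95), a lipoprotein receptor, HECW2 and HIP1.1. For INHBB they were the assembled locus XLOC_001542 (r = 0.96), TULP3, DGKG, CDR2 and SEMA3G. For FST they were LOC101122432 (r = 0.96), EMC1, USP42, SOX9 (r = 0.95), a transcription factor of the gonads, and ARHGEF40. AMH was closest to HSD17B1 (r = 0.97), the granulosa cell enzyme that turns estrone into estradiol, followed by GABRA5, FAIM2, PIGT and RINL. FSTL3 was closest to PMEPA1 (r = 0.96), a gene that TGF-beta signalling induces, followed by E2F4, GGA3, PALLD and MST1R. INHA was closest to the assembled locus XLOC_016701 (r = 0.98), A1BG, CD248, CSDC2 and ICMT. Even for AMHR2, with its low counts and the 0 in W8, the closest gene (ZNF157) reached r = 0.95, ahead of ALKBH2, C3H12orf56, METTL15 and CREG2, so that an r of this size was found for every one of the 7 genes among 16870 others.

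HSD17B1 was read at 5.06, 10.9 and 1.56 CPM in D4, D5 and D6, at 3.37, 0.280 and 0.0669 CPM in W1, W2 and W4, and at 6.11, 4.12 and 8.94 CPM in W6, W7 and W8. As for AMH, W2 and W4 were the lowest of the series. The gene was picked for its correlation with AMH over these same libraries, so its order of ewes is no separate evidence. Its log2 fold change was -2.19 (SE 1.04, unadjusted p of 0.0590 in edgeR) in Han BB against Dorset and 0.12 (SE 0.98) in Han ++ against Dorset. In Han BB against Han ++ it was -2.31 (SE 1.04, unadjusted p of 0.0492 and adjusted p of 1.00 in edgeR).

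A list of 12 genes, receptors of these ligands and related proteins such as IGSF1, was examined, and 8 of them could be tested. None was called and none had an unadjusted p under 0.05 in edgeR in any comparison, and the median log2 fold changes were 0.09 in Han BB against Dorset, 0.07 in Han ++ against Dorset and 0.11 in Han BB against Han ++. ACVR2A, a type II activin receptor, was at 30.6 ± 17.3 (Dorset), 41.5 ± 17.8 (Han BB) and 29.2 ± 6.84 CPM (Han ++) (SD, n = 3 each). TGFBR3, or betaglycan, the co-receptor that lets inhibin compete for activin receptors, was at 196.5 ± 66.2, 217.1 ± 27.3 and 193.3 ± 45.5 CPM in the same order. Its log2 fold change was 0.14 (SE 0.33) in Han BB against Dorset and 0.17 (SE 0.33) in Han BB against Han ++. The receptor genes ACVR1C and BMPR2 had too few reads in their rows to be tested. Whether these rows, or that of BMPR1B, hold all the reads of their genes is not known. Their low counts therefore do not show that the genes are not expressed.

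Of 8 SMAD genes, most of which carry the signal of these receptors to the nucleus while SMAD6 and SMAD7 restrain it, 6 were tested and none was called or had an unadjusted p under 0.05 in edgeR. SMAD3, which activin receptors phosphorylate, had the largest difference of them, with 48.4 ± 11.99 (Dorset), 33.2 ± 5.51 (Han BB) and 43.1 ± 5.26 CPM (Han ++) (SD, n = 3 each). Its log2 fold change in Han BB against Dorset was -0.54 (SE 0.27), at an unadjusted p of 0.0689 in edgeR. SMAD2, its partner, was at 160.6 ± 25.01, 155.8 ± 6.85 and 140.8 ± 19.7 CPM in the same order.

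All 5 proprotein convertases and related proteases that can process such precursors were tested, and none was called. All 5 had a negative log2 fold change in Han BB against Dorset, 2 did in Han ++ against Dorset and 4 in Han BB against Han ++, with medians of -0.32, 0.11 and -0.48. PCSK7 was the only gene of this list with an unadjusted p under 0.05, in Han BB against Dorset (14.2 ± 4.58 against 23.8 ± 5.26 CPM; SD, n = 3 each), with a log2 fold change of -0.74 (SE 0.34), a p of 0.0488 and an adjusted p of 0.975 in edgeR. FURIN, which cleaves many precursors of this family, had a log2 fold change of -0.06 (SE 0.29) in that comparison. Among 13 other activin subunits, follistatin relatives and antagonists, 8 were tested and none was called. In the same order of comparisons 8, 7 and 6 of them had negative values, with medians of -0.47, -0.59 and -0.19. FSTL5, a follistatin-like gene, was at 1.00 ± 0.187 (Han BB) and 3.03 ± 0.574 CPM (Dorset) (SD, n = 3 each), with a log2 fold change of -1.59 (SE 0.57), an unadjusted p of 0.0179 and an adjusted p of 0.975 in edgeR. FSTL1 was at 540.2 ± 59.6 (Han BB), 588.2 ± 53.2 (Dorset) and 491.5 ± 88.4 CPM (Han ++) (SD, n = 3 each). The genes of the remaining beta subunits, INHBC and INHBE, had too few reads to be tested.

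Of 16 symbols listed for transcription factors known to act on the promoters of inhibin subunits or AMH, 12 had a row and 10 were tested. None was called by edgeR, and the median log2 fold change was -0.64 in Han BB against Dorset, with 8 of 10 lower, -0.17 in Han ++ against Dorset and -0.19 in Han BB against Han ++. NR4A1, an immediate early nuclear receptor, was at 92.9, 125.1 and 37.9 CPM in D4, D5 and D6. It was at 9.21, 11.1 and 18.4 CPM in the Han BB ewes W1, W2 and W4 and at 6.58, 11.2 and 23.1 CPM in the Han ++ ewes W6, W7 and W8, so that every Han ewe was below every Dorset ewe. The log2 fold changes were -2.72 (SE 0.55) in Han BB and -2.65 (SE 0.55) in Han ++, at adjusted p of 0.749 and 0.379 in edgeR and of 0.00177 and 0.000776 in DESeq2. These comparisons share the Dorset ewes. Of all tested genes, 4.52% were lower without overlap in Han BB against Dorset and 5.59% in Han ++ against Dorset. NR5A1, the steroidogenic factor that also binds the INHA promoter, was at 23.2 ± 8.86 (Dorset), 13.3 ± 5.04 (Han BB) and 15.9 ± 1.12 CPM (Han ++) (SD, n = 3 each), with a log2 fold change of -0.80 (SE 0.37) in Han BB against Dorset and an unadjusted p of 0.0512 in edgeR. GATA4 and NR5A2 had log2 fold changes of -0.76 (SE 0.44) and -0.51 (SE 0.37) there.

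Markers of the cells that make these hormones were set beside the 7 genes. Of 15 granulosa cell genes 13 had a row and were tested, whereas FOXL2 and CYP19A1 had no row. The summed level of the 13 was 1367 to 1409 CPM in Dorset, 1046 to 1432 CPM in Han BB and 1196 to 1389 CPM in Han ++. Most of this sum came from SERPINE2, GJA1 and CDH2, with means of 530.1, 411.5 and 158.9 CPM in Dorset. The sum therefore follows these 3 genes and not the list evenly. None of the 13 was called by edgeR. In Han BB against Dorset, Han ++ against Dorset and Han BB against Han ++, 1, 1 and 2 of them had an unadjusted p under 0.05 in edgeR. The median log2 fold changes in this order were -0.30, 0.09 and -0.19. In Han BB against Dorset 4 had positive and 9 negative values. GATM, of creatine synthesis, lay higher in Han BB without overlap, at 92.3 ± 29.4 (Han BB) against 56.2 ± 6.38 CPM (Dorset) (SD, n = 3 each), with a log2 fold change of 0.72 (SE 0.34) and an unadjusted p of 0.0613 in edgeR, beside the 4.27% of all tested genes that were higher without overlap. The log2 fold changes of SLC18A2 and KITLG there were 0.98 (SE 0.77) and 0.34 (SE 0.40). Each of these values rested on 1 Han BB ewe. SLC18A2 was at 9.68, 65.9 and 7.02 CPM in W1, W2 and W4, and KITLG at 31.3, 27.1 and 66.2 CPM. TNNI3, a gene of the granulosa cell list, was at 21.7 ± 6.90 (Han BB), 56.4 ± 18.2 (Dorset) and 69.1 ± 24.7 CPM (Han ++) (SD, n = 3 each), with unadjusted p of 0.00349 for Han BB against Dorset and 0.000972 against Han ++, and adjusted p of 0.891 and 1.00, in edgeR. TNNI3 and GJA1 (log2 fold change of -0.41, SE 0.28) lay lower in Han BB than in Dorset without overlap, beside 4.52% of all tested genes. For TNNI3 every Han BB ewe was below every other ewe, an order found for 0.925% of all tested genes. The FSH receptor gene FSHR was at 10.7 ± 2.99 (Dorset), 7.70 ± 2.21 (Han BB) and 11.4 ± 4.22 CPM (Han ++) (SD, n = 3 each), and its log2 fold change was -0.47 (SE 0.39) in Han BB against Dorset and -0.56 (SE 0.39) in Han BB against Han ++. The part of granulosa cell content in the differences of the 7 genes was not tested.

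Markers of other cell types were set beside the 7 genes in the same way. The summed level of 12 genes of ciliated and oviduct epithelium was 509 to 1037 CPM in Dorset, 1072 to 1618 CPM in Han BB and 1138 to 2266 CPM in Han ++. Most of this sum came from OVGP1, with means of 522.5 (Dorset), 985.9 (Han BB) and 1401 CPM (Han ++). FOXJ1, the defining transcription factor of ciliated cells, was at 2.61 to 11.2 CPM over the 9 ewes. Of these 12 genes, 11 were higher in Han BB and 12 in Han ++ than in Dorset (medians 0.92 and 0.88), and ROPN1L, a sperm and cilia protein, was the only gene of all that edgeR called, in Han ++ against Dorset (log2 fold change of 2.71, SE 0.31, adjusted p of 0.0446). No gene was called in that comparison in 8 of the 9 fits that left out 1 ewe, in the fit of those 2 groups alone or in limma voom. Theca cell genes had medians of -0.71, -0.39 and -0.34 in Han BB against Dorset, Han ++ against Dorset and Han BB against Han ++ over 6 tested genes, and luteal cell genes of -0.11, -0.13 and 0.05 over 9. Genes of the ovulatory response had medians of 0.22, -0.34 and 0.45 over 8 tested genes, and oocyte genes of 0.00, -0.78 and 0.63 over 8. Immune cell genes had medians of 0.42, 0.24 and 0.26 over 7 tested genes, and genes of smooth muscle and endothelium of -0.39, -0.40 and -0.10 over 8. No gene of these 6 lists was called by edgeR, and at most 3 genes of a list had an unadjusted p under 0.05 in a comparison (smooth muscle and endothelium, Han BB against Dorset). In DESeq2 the genes of all 13 lists with an adjusted p under 0.05 were NR4A1, ROPN1L, TFF3 and FOXJ1. The levels of these cell types stand beside the 7 genes as measurements, and their part in the differences of the 7 genes was not tested.

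**Figure D5:**
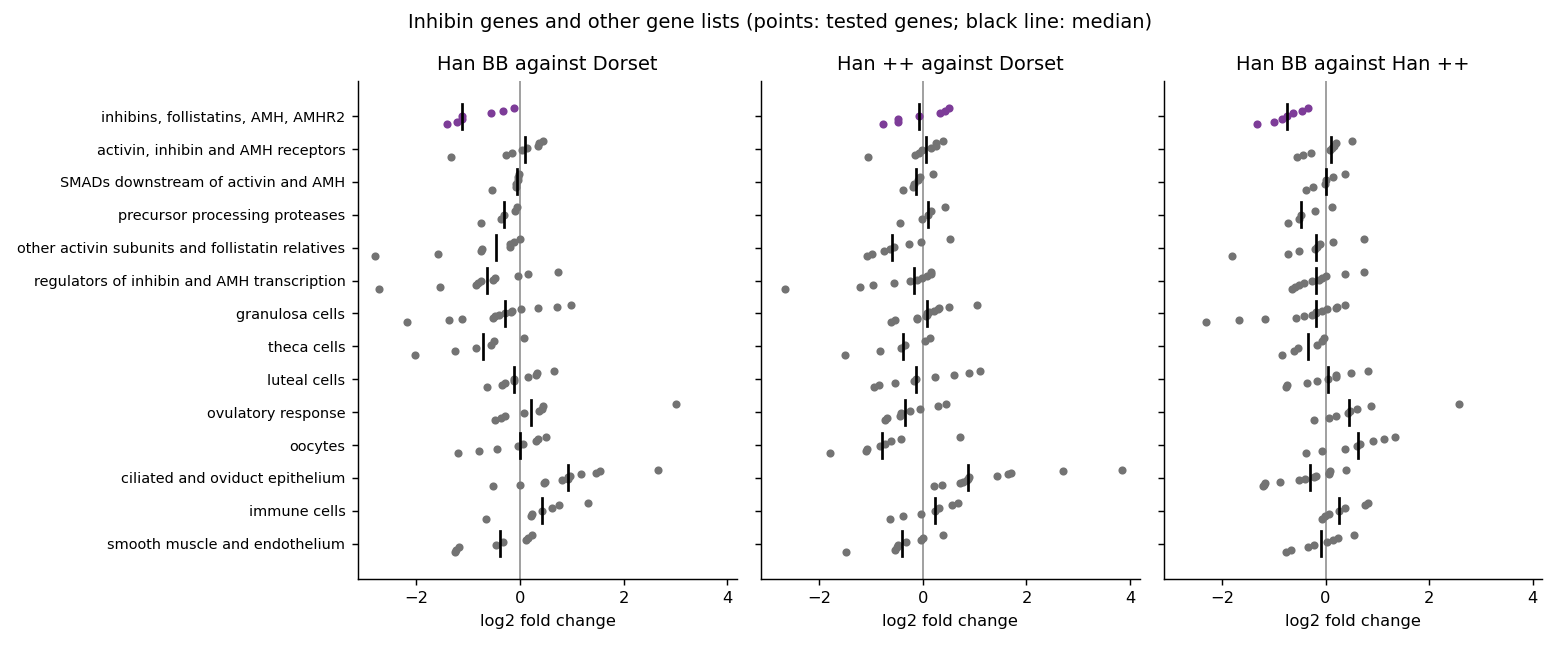
Log2 fold changes of the 7 genes (top, purple) and of the tested genes of 13 lists (grey) in the 3 comparisons, from edgeR. Each point is a gene and each black line a median. The 7 genes lie below 0 in both comparisons of Han BB (medians -1.11 and -0.74). The regulators, follistatin relatives, proteases and theca cell genes also have medians below 0 in both (-0.64, -0.47, -0.32 and -0.71 against Dorset). So do the granulosa cell genes (-0.30 against Dorset and -0.19 against Han ++) and those of smooth muscle and endothelium (-0.39 and -0.095). The medians of the receptors are 0.09 and 0.11. In the comparisons of Han BB and Han ++ with Dorset, 11 and 12 of 12 ciliated and oviduct genes lie above 0 (medians 0.92 and 0.88).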

How the data were processed

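Ovary RNA of 9 ewes was sequenced as paired reads. The authors aligned the reads to the sheep genome Oar_v3.1 with TopHat at default settings, kept reads mapped to a unique place and deposited raw counts of reads per gene, with no normalization. Paralogs can lose reads this way. How strand entered the counting, with which program and in which version, is not given in the sources used here. Counts of genes overlapping on opposite strands are therefore uncertain. The methods describe stranded libraries depleted of ribosomal RNA, while the labels name a different kit.

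The 7 genes, the lists and the thresholds were chosen with earlier results of these data known. Groups came from the labels, which name separate ewes. The counts of all 9 libraries were fitted together in edgeR 4.0.16 (R 4.3.3) with TMM scaling, edgeR's filter by group and the quasi-likelihood F-test with group as the only factor. Adjusted p are Benjamini-Hochberg values over 16871 genes. The fold threshold of 1.5 is that of the study, which used DESeq. Alternatives were DESeq2 1.42.0, limma 3.58.1 (voom with quality weights), DESeq2 size factors in edgeR, no filter, at least 1 CPM in 3 libraries as the filter, separate fits for each pair of groups, no fold threshold, a term for W4 and D6 or their removal, and leaving out each ewe. Adding the reads of second rows of INHBA and INHBB was chosen after seeing the data. Correlations used log2 CPM with a prior count of 0.5 and exact permutation of the 9 ewes, two-sided.

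The text names the 7 genes, at most 4 genes of each list and comparison by smallest p, the 5 genes most correlated with each of the 7 and BMPR1B. A few more list genes were named for their role or direction after their values were seen. The symbols of all 7 were found in a RefSeq table of the assembly ARS-UI_Ramb_v3.0, used for names only. No sequence is printed. Common dispersion gave a biological coefficient of variation of 0.472, which with 3 ewes per group limits precision. The statistics were checked on simulated data. For the group comparisons, recovery of made differences was required only at a smaller spread than that of these data. The check therefore gives no measure of power here. The count table had 0 unused sample columns.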

Additional observations from a re-analysis of the deposited data

How the results depend on the processing

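None of the 7 genes was called under any of the 18 other settings of the group comparisons, and the lowest adjusted p was 0.322 (FST in Han BB against Dorset, limma voom). Of 378 refitted values of the 7 genes, 366 kept their direction and 12 turned. The counts over all genes moved more. Against 0, 1 and 0 called by edgeR in Han BB against Dorset, Han ++ against Dorset and Han BB against Han ++, DESeq2 called 38, 65 and 2, limma voom called 0 and 2 in the last pair of comparisons, and fits without a filter called 2 and 11 in the first pair. In Han ++ against Dorset a fit of the 2 groups alone called 0. Without W4 and D6 the counts were 2 and 22 in the first pair of comparisons, and with a term for that split 1 and 78, so these libraries bear on the counts, and the cause was not tested. Leaving out 1 ewe gave 0 to 1 in Han BB against Dorset (1 without W4) and 0 to 5 in Han ++ against Dorset (5 without W4, and 0 in the other 8 fits).

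limma voom gave -0.41 for FSTL3 and -0.15 for AMHR2 in Han ++ against Dorset. Leaving out 1 ewe gave the following ranges of log2 fold change. For Han BB against Dorset they were -0.85 to 0.069 for INHA (above 0 without W4) and -0.49 to 0.15 for AMHR2. For Han ++ against Dorset they were -0.90 to 0.13 for INHBB (above 0 without D5), -0.29 to 0.094 for AMH, -0.45 to 0.89 for AMHR2 and -0.56 to 0.78 for FSTL3 (lowest without W8). For Han BB against Han ++ they were -1.60 to 0.0068 for FSTL3 (highest without W8) and -1.01 to 0.34 for AMHR2. Of the 21 relations between the 7 genes, 3 passed by r, also with a prior count of 2 and with DESeq2 size factors, and 1 passed without W4 and D6. No paired analysis was possible because the ewes of different groups are different animals, and replicate numbers given in accession order do not pair them. AMH had 5 to 50 and AMHR2 0 to 36 reads per library, and what depth contributes beside the spread between ewes was not tested.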

Other observations

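The count table holds a second row for each beta subunit, named INHBA.1 and INHBB.1. These were not counted with the genes of the report, because the file does not say how they differ from the first rows. INHBA.1 had 16, 33 and 10 reads in D4, D5 and D6, 1, 0 and 5 reads in the Han BB ewes W1, W2 and W4, and 14, 17 and 9 reads in the Han ++ ewes W6, W7 and W8. Every Han BB ewe was below every other ewe, an order seen after the values were known and found for 0.925% of all tested genes. The log2 fold change of INHBA.1 in Han BB was -3.19 (SE 1.17) against Dorset and -2.53 (SE 1.16) against Han ++, at unadjusted p of 0.0200 and 0.0516 and adjusted p of 0.975 and 1.00 in edgeR. INHBB.1 had 15, 21 and 1 reads in the Dorset ewes, 0, 10 and 2 in the Han BB ewes and 6, 3 and 3 in the Han ++ ewes, in the same order, and its groups overlapped. Adding both to the first rows left the log2 fold changes of INHBA and INHBB in Han BB against Dorset at -1.12 and -1.24.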
